A study of Mus musculus with 6 samples.

Results

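CXC chemokines and their receptors were followed through 6 mouse rhabdoid tumors, taking the ligands Cxcl1, Cxcl2, Cxcl9, Cxcl10, Cxcl12, Cxcl14 and Cxcl16 and the receptors Cxcr3, Cxcr4 and Cxcr6. These 10 genes, of 16557 listed in any of the 6 tables, were taken by name, and a gene missing from a table was counted as 0. Cxcl9 was missing from the table of MYC spinal 2 and Cxcl12 from that of eRT 1. The tables hold genes found in 3 or more cells, so a missing gene is only listed at 0 here and may have had UMIs in up to 2 cells. Together the 10 genes had 156056 UMIs in the 22163 cells kept. UMIs are the molecular identifiers that mark single captured transcripts, and levels are given as CPM, the UMIs of a gene per 1000000 UMIs of all cells of a kind in a tumor.

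The tumors were 3 MYC spinal tumors (named MYC spinal 1, 2 and 3) and 3 extracranial MYC tumors (eRT 1, 2 and 3), and values of a subtype are given in that order unless tumors are named. All 6 mice lost the chromatin remodeler subunit gene Smarcb1 through a tamoxifen-dependent Cre recombinase acting on floxed alleles, and were of C57BL/6 background. Tamoxifen was given at 50 mg/kg on embryonic day 6.5 in every case. The MYC spinal tumors and eRT 1 are labelled Rosa26-cre, a ubiquitous driver, and eRT 2 and 3 are labelled Sox2-cre, whose promoter is active in embryonic and stem-like cells. Both labels stand for the inducible creERT2 lines of the study's methods and not for constitutive Cre. Mice were 19, 26 and 17 weeks old in the MYC spinal group and 17, 29 and 22 weeks in the eRT group, as labelled. For eRT 1 the study's sample list gives a slightly lower age. The eRT lay in a gland, the jaw and the shoulder. Each tumor came from 1 animal, and subtype, site and mouse model cannot be told apart for eRT 2 and 3. Nothing marks the samples of a subtype as other than separate animals, so p-values between subtypes measure the spread between animals.

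CXC chemokines are small secreted proteins that direct the migration of leukocytes through G protein-coupled receptors. Cxcl1 and Cxcl2 act on Cxcr2 and draw neutrophils. Cxcl9 and Cxcl10 are induced by interferon and draw activated T and NK cells through Cxcr3. Cxcl12 is made by stromal cells and holds Cxcr4-bearing cells in bone marrow and tissue. Cxcl16 is made as a membrane-bound ligand that Adam10 and Adam17 can shed, and it binds Cxcr6. Cxcl14 is an ancient member of the family that is widespread in epithelia.

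Cxcl1, Cxcl2, Cxcl9 and Cxcl10 lie on chromosome 5. Cxcl1 occupies chr5:90891241-90893115 on the plus strand, Cxcl2 chr5:90903871-90905938 on the plus strand and Cxcl10 chr5:92346638-92348889 on the minus strand (GRCm38, GENCODE). The 250 bases before the RefSeq start of these 3 genes are shown because they carry matches to motifs of the factors known to induce them. RefSeq promoters (GRCm38.p6) were found for 9 of the 10 genes, and not for Cxcl16. Capitals mark matches to the NF-kB consensus in all 3 and, in Cxcl10, also the first match, to GAAANNGAAA, the interferon-stimulated response element (ISRE). Both strands were searched. The sequences read 5′ to 3′ on the strand of the gene, Cxcl1 from chr5:90890995-90891244, Cxcl2 from chr5:90903649-90903898 and Cxcl10 from chr5:92348890-92349139.
Cxcl1: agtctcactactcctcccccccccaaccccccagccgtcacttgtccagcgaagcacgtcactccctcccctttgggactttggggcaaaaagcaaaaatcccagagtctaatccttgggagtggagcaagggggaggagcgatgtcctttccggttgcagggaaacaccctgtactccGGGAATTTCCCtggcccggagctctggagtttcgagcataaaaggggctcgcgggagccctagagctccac
Cxcl2: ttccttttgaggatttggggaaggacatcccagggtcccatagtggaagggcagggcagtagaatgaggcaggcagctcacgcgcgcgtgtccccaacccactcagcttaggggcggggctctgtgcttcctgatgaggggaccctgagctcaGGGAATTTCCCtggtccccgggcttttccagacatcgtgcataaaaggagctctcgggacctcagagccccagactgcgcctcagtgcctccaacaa
Cxcl10: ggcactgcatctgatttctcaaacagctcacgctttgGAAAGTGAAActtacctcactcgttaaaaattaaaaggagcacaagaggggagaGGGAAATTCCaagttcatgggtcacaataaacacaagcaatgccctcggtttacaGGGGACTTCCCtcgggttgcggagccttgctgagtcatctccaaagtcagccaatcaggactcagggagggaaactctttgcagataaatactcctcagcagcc

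Cxcl1 and Cxcl2 carry the same 11 bases, GGGAATTTCCC, which match on both strands, at -71 to -61 and at -97 to -87 from the RefSeq start. Cxcl10 has the ISRE match GAAAGTGAAA at -213 to -204 and NF-kB matches GGGAAATTCC at -159 to -150 and GGGGACTTCCC at -104 to -94, the last made of overlapping matches on both strands. The NF-kB consensus was found in 7.25% of 32851 promoters of the same length, and the ISRE letters in 2.98%. Of the other 6 promoters, only that of Cxcl14 held either motif, an ISRE match. A match describes letters in this window and is not evidence that a factor binds there.

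Kinds of cells were named from marker genes after clustering the cells of each subtype without the CXC genes, and a kind is written "-like" for that reason. Tumor clusters were those with nearly no Smarcb1 (0 to 6.41 CPM against 27.0 to 69.8 CPM in immune-like cells), a choice that used this gene and so does not check it. Fibroblast markers summed to 588 to 2749 CPM in the tumor cells. Tumor cells numbered 118, 14, 1641, 68, 201 and 632 in MYC spinal 1, 2 and 3 and eRT 1, 2 and 3. Cells kept per tumor ranged from 1469 to 6740, with 3841706 to 26184224 UMIs and a median of 916 to 5211 UMIs per cell. No cell profile was shared between tables. Intervals given below are 95% intervals that cover counting error only.

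Some libraries stood apart. In MYC spinal 2, neutrophil markers summed to 5245 to 19288 CPM in every kind of immune-like cell that is not a neutrophil, and to 17836 CPM in its 14 tumor cells. In MYC spinal 1, the 43 monocyte-like cells held T cell markers at 2730 CPM (67.4% of cells) and the 21 progenitor-like cells at 4432 CPM (all cells), so their values go against their names. The same markers were found in 53.3% of the 30 osteoclast-like cells of eRT 2. The 20 dendritic-like cells of eRT 1 held macrophage markers at 10274 CPM, against 202 to 1361 CPM in the dendritic-like cells of the other 4 tumors compared.

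The monocyte- and macrophage-like names do not hold equally in every tumor. The monocyte-like cells of eRT 1 and 3 held macrophage markers at 14254 and 12752 CPM and monocyte markers at 2583 and 1611 CPM, so their markers go against their name. In those of eRT 2 the macrophage markers stood at 2511 CPM and the monocyte markers at 6401 CPM. The macrophage-like cells of MYC spinal 2 held monocyte markers at 6063 CPM and macrophage markers at 2180 CPM, the other way round. The tests below add the monocyte- and macrophage-like cells of a tumor together.

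**Figure D1:**
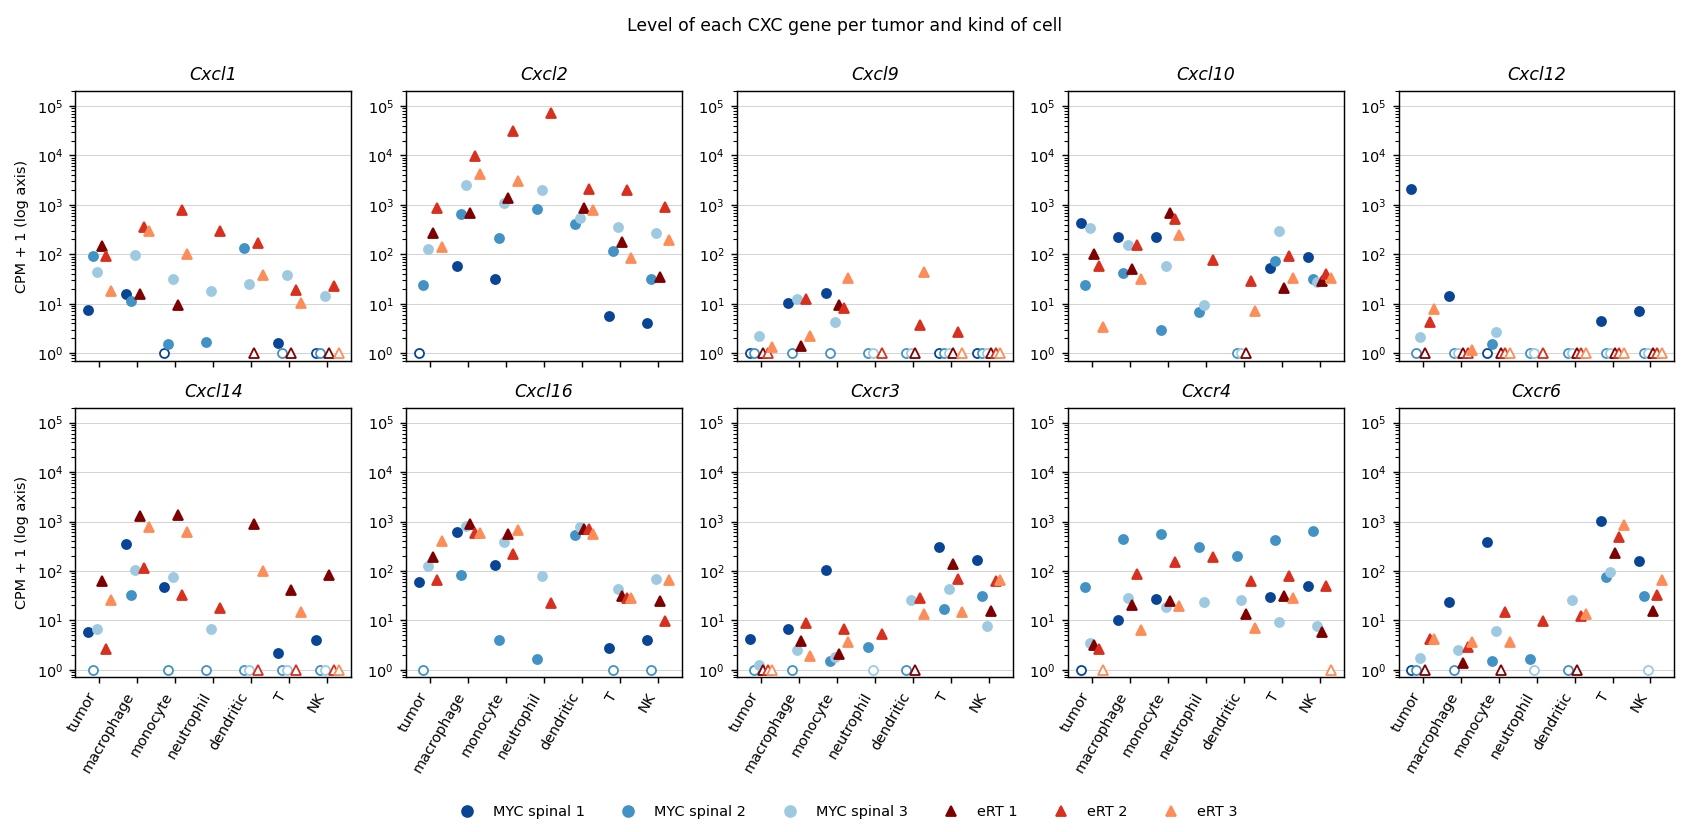
Level of each of the 10 genes (CPM plus 1, log axis) in tumor cells and each immune-like kind, 1 point per tumor with at least 10 cells of the kind. Cxcl2 reached 71082 CPM in neutrophil-like cells of eRT 2, while Cxcr3 and Cxcr6 were highest in T-like cells, with means of 96.5 and 457 CPM.

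Cxcl2 was the most abundant of the genes, with 101978 of their 156056 UMIs. In neutrophil-like cells, found in numbers in 3 tumors, it was at 817 CPM in MYC spinal 2, 1985 CPM in MYC spinal 3 and 71082 CPM (interval 70003 to 72173) in eRT 2. In monocyte-like cells it was at 30.7, 216 and 1099 CPM in the MYC spinal tumors, while the eRT held 1383, 30591 and 2990 CPM. In macrophage-like cells the values were 58.3, 644 and 2503 CPM in the MYC spinal tumors and 676, 9599 and 4133 CPM in the eRT, in the same order of mice. eRT 2 was highest and MYC spinal 1 lowest in each of these myeloid kinds they both had, and the subtypes overlapped. The MYC spinal 1 value of 30.7 CPM comes from the 43 cells with T cell markers.

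In eRT 2, nearly every neutrophil- and monocyte-like cell held Cxcl2. At least 1 UMI was found in 100% of its 201 neutrophil-like cells, 97.8% of its monocyte-like cells and 84.9% of its macrophage-like cells. In MYC spinal 2 the share was 37.1% of neutrophil-like and 10.7% of monocyte-like cells, and in MYC spinal 1 3.85% of macrophage-like cells. After each cell had been thinned to 1000 UMIs, the neutrophil-like shares were 36.7% (of 651 cells deep enough), 53.4% (of 163) and 100% (of 103) in MYC spinal 2 and 3 and eRT 2. The unthinned share in MYC spinal 3 was 66.3%, and the order of the 3 tumors was the same with and without thinning.

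T-like cells, which should not make Cxcl2, had 4.70, 113 and 347 CPM in the MYC spinal tumors and 180, 1974 and 83.3 CPM in the eRT, and 51.3% of T-like cells of eRT 2 had a UMI. In that tumor the ratio of Cxcl2 to S100a8 plus S100a9 UMIs was 1.82 in T-like, 1.25 in NK-like, 1.69 in B-like and 1.66 in dendritic-like cells, 1.04 in tumor cells and 0.640 in neutrophil-like cells. It was 12.4 in monocyte-like and 9.09 in macrophage-like cells. In MYC spinal 3 it was 1.73 in T-like, 0.297 in NK-like, 0.272 in tumor and 0.537 in monocyte-like cells, and in eRT 1 it was 0.105, 0.350, 1.14 and 2.93 in the same order. In MYC spinal 2, where neutrophil markers were high in every kind, the ratio was 0.0132 in T-like, 0.00806 in NK-like and 0.00467 in B-like cells. There it was 0.00178 in tumor cells (1 UMI of Cxcl2) and 0.00232 in neutrophil-like cells. The ratios of lymphoid and tumor cells lay near each other in eRT 2 and did not in these other tumors. A Cxcl2 level at or below that of the T-like cells of the same tumor is not read here as expression, and the source of such UMIs was not tested.

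**Figure D2:**
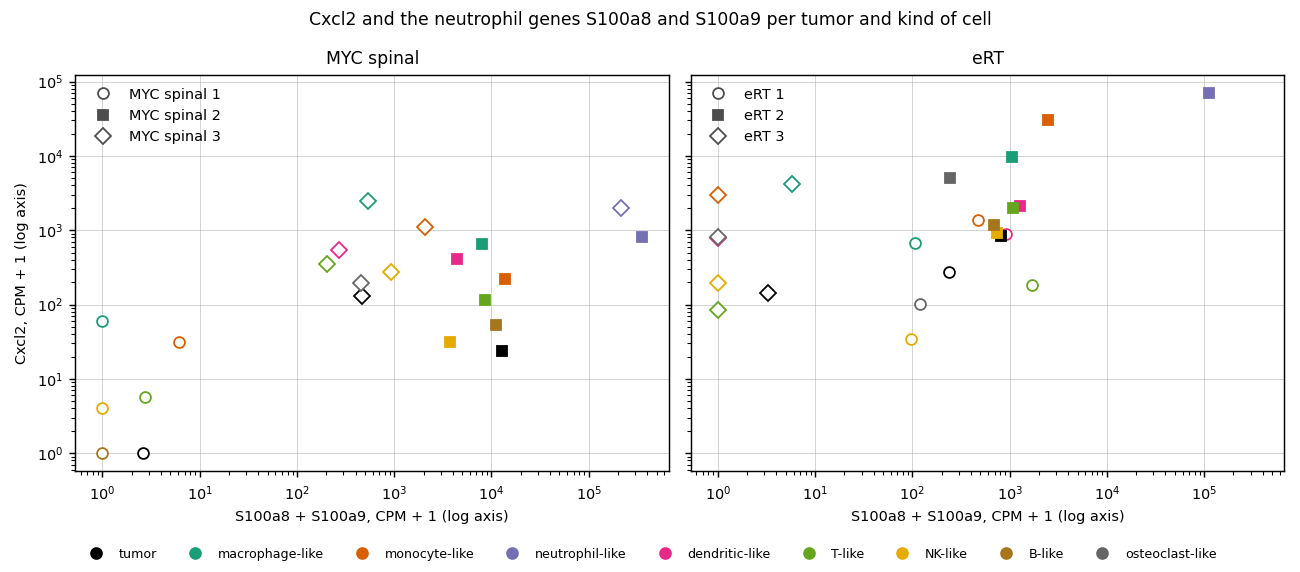
Cxcl2 against the sum of the neutrophil genes S100a8 and S100a9 (both CPM plus 1, log axes) for each kind of cell in each tumor, MYC spinal on the left and eRT on the right, with color for the kind and shape for the tumor. In eRT 2 the T-, NK-, B- and dendritic-like cells lie close together between 922 and 2104 CPM of Cxcl2, below the monocyte-like cells at 30591 CPM.

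Cxcl1 was scarcer than Cxcl2, with 4399 UMIs in all. It was at 791.6 CPM in monocyte-like, 353 CPM in macrophage-like and 300.4 CPM in neutrophil-like cells of eRT 2, and at 295 CPM in macrophage-like cells of eRT 3. Macrophage-like cells of MYC spinal 1, 2 and 3 and eRT 1 held 15.0, 10.4, 94.2 and 14.4 CPM. The share of macrophage-like cells with a UMI ran from 0.649% (MYC spinal 2) to 26.6% (eRT 3). eRT 2 and 3, the 2 tumors labelled Sox2-cre, were thus the highest in this kind. T-like cells held 0 to 37.7 CPM. Tumor cells held 6.395, 90.9 (4 UMIs) and 43.6 CPM of Cxcl1 in the MYC spinal tumors and 150, 93.4 and 16.8 CPM in the eRT.

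Neutrophil-like cells were compared with the macrophage- and monocyte-like cells of the same 3 tumors by edgeR's quasi-likelihood test with the tumor as a block. Of 7127 genes tested, 7.07% were higher and 4.57% lower. Among the 6 CXC genes tested, Cxcl2 was higher in neutrophil-like cells (log2 fold change 1.82 ± 0.52 SE, adjusted p = 0.0440), and Cxcl16 (-2.85 ± 0.42, adjusted p = 0.00161) and Cxcl14 (-2.34 ± 0.62, adjusted p = 0.0333) were lower. Cxcl16 was lower in 3 of 3 tumors and Cxcl14 in 2 of 3, with 0 against 3 UMIs in MYC spinal 2, too few to read a direction. Without scaling factors, Cxcl2 stood higher in 2 of 3 tumors, at 817 against 236 CPM in MYC spinal 2 and 71082 against 22645 CPM in eRT 2, and at 1985 against 2129 CPM in MYC spinal 3. Cxcl1 (-0.77 ± 0.43), Cxcl10 (-1.30 ± 0.64) and Cxcr4 (0.50 ± 0.37) did not pass the test. The call for Cxcl2 was lost without TMM factors, when the value was 1.12 (adjusted p = 0.118), the higher share of all calls moved from 60.7% to 12.5% and the median of all genes moved by -0.71. It was also lost without MYC spinal 2 (1.46, adjusted p = 0.242) and without eRT 2 (1.51, adjusted p = 0.0999), and that for Cxcl14 without MYC spinal 2 (-2.21, adjusted p = 0.115) and without MYC spinal 3 (-1.43, adjusted p = 0.392).

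Within the neutrophil-like cells of the MYC spinal tumors, Cxcl2 differed between clusters. The cluster led by Retnlg and Mmp8, genes of late neutrophils, held 1242 CPM in MYC spinal 2 and 3014 CPM in MYC spinal 3. The cluster led by Camp and Ngp, genes of immature granule-forming cells, held 412 and 911 CPM. The late cluster was higher in both tumors, which is given as a description of 2 tumors.

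Cxcl10 was found in the tumor cells of MYC spinal 1 and 3 and in a part of the monocyte-like cells of the eRT. In tumor cells it was at 428 CPM (interval 379 to 483), 22.7 CPM (1 UMI) and 344 CPM (interval 331 to 357) in MYC spinal 1, 2 and 3. In the eRT tumor cells it was at 100.4, 58.0 and 2.30 CPM in eRT 1, 2 and 3. A UMI was found in 41.5% and 32.1% of tumor cells of MYC spinal 1 and 3 and in 17.6%, 4.48% and 0.791% of those of eRT 1, 2 and 3. Thinned to 1000 UMIs, these shares were 25.9%, 14.5%, 4.41%, 2.21% and 0%. Of all Cxcl10 UMIs, tumor cells held 48.6% in MYC spinal 1 and 73.7% in MYC spinal 3, and 4.30%, 5.45% and 2.24% in the eRT. Such shares also depend on the number of tumor cells. These made up 8.03% and 24.3% of the cells in MYC spinal 1 and 3, and 3.17%, 9.84% and 15.7% in the eRT.

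T-like cells held Cxcl10 at 19.9 to 301 CPM over the 6 tumors. In MYC spinal 1 they stood at 52.3 CPM, below its tumor cells, with a UMI in 4.38% of cells (median depths 1791 and 5347.5 UMIs). In MYC spinal 3 the T-like cells held 301 CPM (72 UMIs, interval 236 to 380), and this interval overlaps that of its tumor cells. A UMI was found in 12.1% of those T-like cells, whose median depth was 1934 UMIs against 4376 in the tumor cells, and after thinning in 10.3% of T-like and 14.5% of tumor cells. At this depth the level of MYC spinal 3 tumor cells is not told apart from that of its T-like cells.

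Monocyte-like cells held Cxcl10 at 682, 513 and 248 CPM in eRT 1, 2 and 3, and at 225, 1.98 and 56.1 CPM in MYC spinal 1, 2 and 3, of which the first is the T-marked group of 43 cells. Those of eRT 1 and 3 are the cells with more macrophage than monocyte markers. Macrophage-like cells held 30.5 to 224 CPM over the 6 tumors. In the eRT, Cxcl10 lay in a monocyte-like cluster led by Rsad2, Ifit3 and Ifit2, genes of the interferon response. There it reached 1151, 2124 and 527 CPM in eRT 1, 2 and 3, against 34.6, 143 and 19.6 CPM in the other monocyte-like cluster, led by Chil3 and Thbs1. Dendritic-like cells had 0 to 27.5 CPM.

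Within MYC spinal tumor cells, Cxcl10 also differed by cluster. The main tumor cluster, led by Id3 and Angptl7, held 488 CPM in MYC spinal 1 (49 of 97 cells with a UMI) and 359 CPM in MYC spinal 3 (472 of 1365 cells). The cluster led by Apod and Klk8 held 0 UMIs in 21 cells of MYC spinal 1 and 31.9 CPM in 180 cells of MYC spinal 3. The tumor cluster led by Bex1 and Stmn2, found in MYC spinal 3, held 366 CPM of Cxcl10 and 118 CPM of Cxcl1, the latter in 30.2% of its 96 cells. Cxcl1 stood at 39.2 CPM in the main tumor cluster of that tumor. In eRT 1 the tumor cluster led by Prg4 and Cldn4, found in 37 cells of that tumor, held 191 CPM of Cxcl10 and 217 CPM of Cxcl1.

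**Figure D3:**
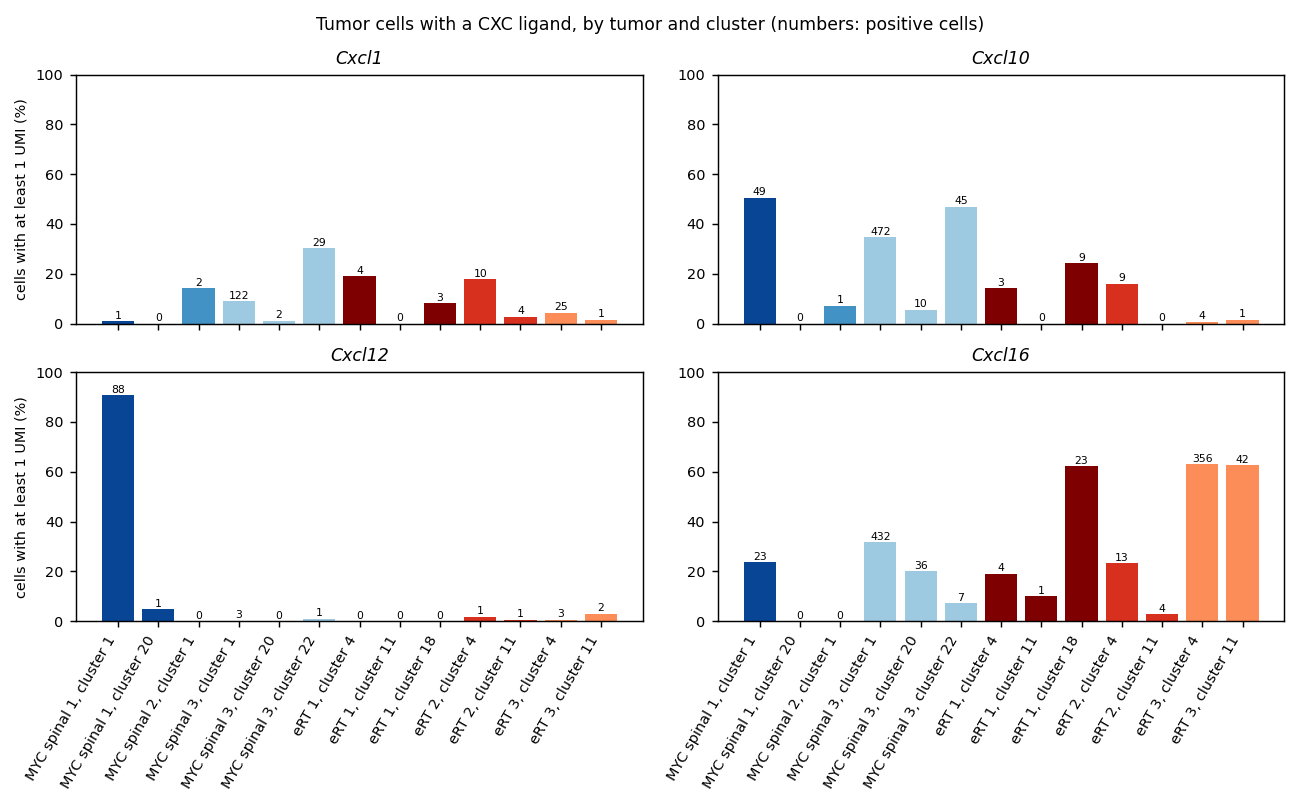
Share of tumor cells with at least 1 UMI of each plotted ligand (percent), by tumor and tumor cluster, bars starting at 0 with the number of positive cells above each. Cxcl12 is found in 88 of 97 cells of the main cluster of MYC spinal 1 and in 3 of 1365 cells of the same cluster of MYC spinal 3.

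Cxcl9, the other interferon-induced ligand, was nearly undetected, with 140 UMIs in all. Monocyte-like cells of the MYC spinal tumors held 15.3 (3 UMIs in the T-marked cells), 0 (gene not listed) and 3.35 CPM, and those of the eRT 8.29, 7.01 and 32.3 CPM. Macrophage-like cells held 0 to 11.5 CPM. The 42.9 CPM of dendritic-like cells of eRT 3 were 7 UMIs in 1 cell. In tumor cells 10 UMIs were counted in MYC spinal 3, 1 in eRT 3 and 0 in the others, of which MYC spinal 2 does not list the gene.

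Cxcl12 was a feature of 1 tumor. The tumor cells of MYC spinal 1 held 2080 CPM (interval 1968 to 2196), with a UMI in 75.4% of 118 cells. Those of MYC spinal 3 and eRT 2 and 3 held 1.07, 3.22 and 6.90 CPM, and those of MYC spinal 2 had 0 UMIs, which allows up to 68.2 CPM. In eRT 1 the gene is not listed, which gives no limit on its CPM but allows a UMI in at most 2 cells. Of 1301 Cxcl12 UMIs in the tumor cells of MYC spinal 1, 1297 lay in the main tumor cluster (2361 CPM, 90.7% of 97 cells) and 4 in the Apod and Klk8 cluster. Tumor cells of this mouse held 98.5% of its Cxcl12 UMIs. In eRT 3, 82 of 105 Cxcl12 UMIs lay in an unnamed cluster of 70 cells led by Itm2a, Ptn and Igfbp6, at 398 CPM. All immune-like cells of a tumor together held at most 5.39 CPM. Cxcl12 did not pass the filter on low counts in the comparison of tumor with immune-like cells, so it was not tested there.

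Among the named kinds, Cxcl14 was found mainly in macrophage-, monocyte- and osteoclast-like cells, and its level differed widely between animals. Unnamed cells held 3371 of its 17267 UMIs. Those of eRT 1 and 3 carried macrophage markers at 8388 and 13443 CPM. Macrophage-like cells of the MYC spinal tumors held 348, 31.1 and 102 CPM, and those of the eRT 1318, 113 and 766 CPM. A UMI was found in 92.7% of macrophage-like cells of eRT 1 and in 1.95% of those of MYC spinal 2. Monocyte-like cells held 46.0, 0 and 73.7 CPM and 1330, 31.5 and 622 CPM in the same order, the 46.0 CPM of MYC spinal 1 coming from the T-marked cells. eRT 1 and 3 were highest in both kinds, while eRT 2 overlapped the MYC spinal tumors. The 1330 and 622 CPM stand in the monocyte-like cells with more macrophage than monocyte markers, whose C1q genes summed to 11677 and 9514 CPM, against 435 CPM in those of eRT 2. Osteoclast-like cells held 39.1 CPM in MYC spinal 3 and 562, 93.0 and 246 CPM in the eRT. The dendritic-like cells of eRT 1, which carried macrophage markers, held 891 CPM.

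Cxcl16 was found in macrophage-, monocyte-, dendritic- and osteoclast-like cells and in tumor cells. Macrophage-like cells of the MYC spinal tumors held 617, 83.1 and 801 CPM, and those of the eRT 902, 585 and 576 CPM. Dendritic-like cells held 538 to 786 CPM over 5 tumors (mean 659 ± 107 SD, n = 5), of which the 693 CPM of eRT 1 come from cells with macrophage markers at 10274 CPM. In eRT 2 and 3, the dendritic-like cluster led by Ccr7 and Fscn1, genes of mature dendritic cells, held 1340 and 1423 CPM, and the other dendritic-like cluster 382 and 449 CPM. Monocyte-like cells ranged from 2.97 CPM (MYC spinal 2) to 673 CPM (eRT 3). Osteoclast-like cells held 122 CPM in MYC spinal 3 and 84.3, 174 and 357 CPM in the eRT, with a UMI in 20.0% to 60.9% of cells. Tumor cells held 59.2, 0 and 124 CPM in the MYC spinal tumors and 190, 64.4 and 405 CPM in the eRT. In eRT 3, 63.0% of tumor cells had a UMI of Cxcl16 and 16.8% had one of Cxcl2.

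Dendritic-like cells were compared with macrophage- and monocyte-like cells over 5 tumors in the same way. Of 5983 genes tested, 5.06% were lower in dendritic-like cells. Of the 6 CXC genes tested, 4 were lower. Cxcl10 was at -4.18 ± 0.60 (adjusted p = 5.12e-10), Cxcl14 at -2.46 ± 0.49 (adjusted p = 1.87e-05), Cxcl2 at -1.84 ± 0.35 (adjusted p = 9.10e-06, lower in 3 of 5 tumors) and Cxcl1 at -2.05 ± 0.51 (adjusted p = 0.00156). Cxcl10 and Cxcl14 were lower in 4 of 5 tumors, since the 0 UMIs of MYC spinal 2 allow up to 202 CPM and give no direction there. For Cxcl1 the dendritic-like cells of MYC spinal 2 and 3 and eRT 1 held 2, 1 and 0 UMIs, and only eRT 2 and 3 show it lower. Without eRT 1, whose dendritic-like cells carry macrophage markers, Cxcl14 was at -3.82, Cxcl10 at -3.89, Cxcl2 at -2.33 and Cxcl1 at -1.96, and all 4 passed. Cxcl16 (0.66 ± 0.37, adjusted p = 0.358) and Cxcr4 (-1.32 ± 0.52, adjusted p = 0.102) did not pass. The call for Cxcl1 was lost without eRT 2 (-2.17, adjusted p = 0.0791), without eRT 3 (-1.49, adjusted p = 0.201) and in DESeq2 (-1.52, adjusted p = 0.681). The dendritic-like cells of MYC spinal 2 and 3 and eRT 1 number 10, 19 and 20.

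Cxcr6 and Cxcr3 are chemokine receptors of lymphocytes. In T-like cells Cxcr6 was at 1031, 72.7 and 92.1 CPM in the MYC spinal tumors, and the eRT held 229, 485 and 833 CPM. A UMI was found in 4.59% (MYC spinal 2) to 58.8% (MYC spinal 1) of T-like cells, and after thinning in 0% (MYC spinal 2, 19 cells deep enough) to 48.2%. Outside the lymphoid kinds, Cxcr6 stood at 378 CPM in the T-marked monocyte-like cells of MYC spinal 1. It stood at 376 CPM in the T-marked progenitor-like cells of that tumor, with a UMI in 76.2% of 21 cells. The osteoclast-like cells of eRT 2, which also held T cell markers, had 267 CPM. Cxcr3 was at 299, 16.2 and 41.9 CPM in T-like cells of the MYC spinal tumors and at 140, 68.9 and 13.9 CPM in those of the eRT. NK-like cells held 0 to 156 CPM of Cxcr6 and 6.64 to 162 CPM of Cxcr3. MYC spinal 1 was highest for both receptors and both kinds of cells.

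The T-like clusters with the most Cxcr6 and the most Cxcr3 were not the same. Cxcr6 was highest in clusters led by 5430421N21Rik, Actn2 and Cd163l1, to which Il17a belongs in the eRT. There it held 1950 CPM (95.9% of 169 cells) in MYC spinal 1 and 341 CPM in MYC spinal 3, and 1235 and 1115 CPM in eRT 2 and 3. Cxcr3 held 132 CPM in that cluster of MYC spinal 1, 4.94 CPM (1 UMI) in eRT 2 and 0 UMIs in MYC spinal 3 and eRT 3. In MYC spinal 1 it was higher in the cluster led by Cd8b1 and Cd8a (342 CPM) and in the cluster led by Tnfrsf4 and Tnfrsf18 (381 CPM), where Cxcr6 held 882 and 423 CPM, so in MYC spinal 1 both clusters held both receptors. Cd163l1 and Il17a are genes known from gamma delta T cells and other cells that make interleukin 17.

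T- and NK-like cells were compared with macrophage- and monocyte-like cells over 6 tumors. Of 6988 genes tested, 12.9% were higher and 15.4% lower. Of the 8 CXC genes tested, Cxcr3 (3.68 ± 0.31, adjusted p = 6.37e-05) and Cxcr6 (5.31 ± 0.68, adjusted p = 4.17e-04) were higher, each in 6 of 6 tumors. For Cxcr3 in MYC spinal 2 this rests on 3 against 1 UMIs. T- and NK-like cells held 19.1 to 277 CPM of Cxcr3 and 56.5 to 890 CPM of Cxcr6. Macrophage- and monocyte-like cells held 0.473 to 31.6 and 0.289 to 118 CPM. Both receptors passed the filter on low counts through the T- and NK-like cells, so their calls add no support beyond these levels. Cxcl14 (-6.00 ± 0.50), Cxcl16 (-4.95 ± 0.52), Cxcl1 (-4.09 ± 0.61) and Cxcl2 (-3.53 ± 0.48) were lower, with adjusted p of 6.37e-05, 1.55e-04, 9.18e-04 and 5.65e-04. Cxcl2 was lower in 6 of 6 tumors and the other 3 genes in 5 of 6, since 0 UMIs in the T- and NK-like cells of MYC spinal 2 gave no direction there. Cxcl10 (-1.08 ± 0.75, adjusted p = 0.324) and Cxcr4 (-0.26 ± 0.38, adjusted p = 0.671) did not pass. Without the T-marked monocyte-like cells of MYC spinal 1, Cxcr3 was at 4.2 and Cxcr6 at 5.89. The share of higher calls among all genes was 45.7% with TMM factors and 57.6% without them.

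Cxcr4, the receptor of Cxcl12, was highest in MYC spinal 2 in each kind of immune-like cell compared here. In that tumor it was at 412 CPM in T-like, 628 CPM in NK-like, 597 CPM in B-like, 566 CPM in monocyte-like, 436 CPM in macrophage-like and 298 CPM in neutrophil-like cells. In the monocyte-like cells of the other tumors it was at 25.6 (T-marked cells), 17.6, 23.8, 154 and 18.9 CPM in MYC spinal 1 and 3 and eRT 1, 2 and 3. In their T-like cells it was at 28.8, 8.37, 29.9, 78.7 and 27.8 CPM. eRT 2 was the second highest in both. The neutrophil-like cells of MYC spinal 2 held less Cxcr4 than its monocyte- and B-like cells. Neutrophil markers were also high in every kind of cell of MYC spinal 2, and their part in these values was not tested. Tumor cells had 0 to 2.50 CPM in 5 tumors and 45.4 CPM (2 UMIs) in MYC spinal 2.

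Tumor cells were then compared with all immune-like cells of the same tumor, leaving aside osteoclast-like and unnamed cells. Of 9441 genes tested, 16.9% were lower in tumor cells. Of the 6 CXC genes tested, 4 were lower and none was higher. Cxcl2 and Cxcr4 were lower in 6 of 6 tumors. Cxcl14 and Cxcl16 were lower in 5 of 6, since the 0 UMIs in tumor cells of MYC spinal 2 allow up to 68.2 CPM, above the 0.503 and 4.19 CPM of its immune-like cells. Cxcl14 was at -4.39 ± 0.28 (adjusted p = 4.58e-06), Cxcr4 at -4.24 ± 0.46 (adjusted p = 5.12e-05), Cxcl2 at -3.96 ± 0.49 (adjusted p = 1.27e-04) and Cxcl16 at -1.72 ± 0.28 (adjusted p = 8.82e-04). Cxcr4 passed the filter on low counts through the immune-like cells, at 6.82 to 384 CPM, so its call adds no support beyond these levels. Cxcl2 was at 0, 22.7, 127, 269, 845 and 143 CPM in tumor cells and at 24.6, 322, 1900, 805, 17525 and 3813 CPM in immune-like cells of MYC spinal 1, 2 and 3 and eRT 1, 2 and 3. Cxcl1 (-0.32 ± 1.16, adjusted p = 0.877) and Cxcl10 (-0.55 ± 0.80, adjusted p = 0.661) did not pass and had higher values in tumor cells in 3 of 6 tumors each, that of Cxcl10 in MYC spinal 2 resting on 1 UMI. Cxcl9, Cxcl12, Cxcr3 and Cxcr6 did not pass the filter on low counts, which asks for counts in enough of the sums, and were not tested. Cxcr6 and Cxcr3 still held 2531 and 759 UMIs in immune-like cells. Without the T-marked cells of MYC spinal 1 the same number, 4, passed. The share of higher calls among all genes was 44.9% with TMM factors and 57.5% without them, and the median of all genes moved by 0.2.

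**Figure D4:**
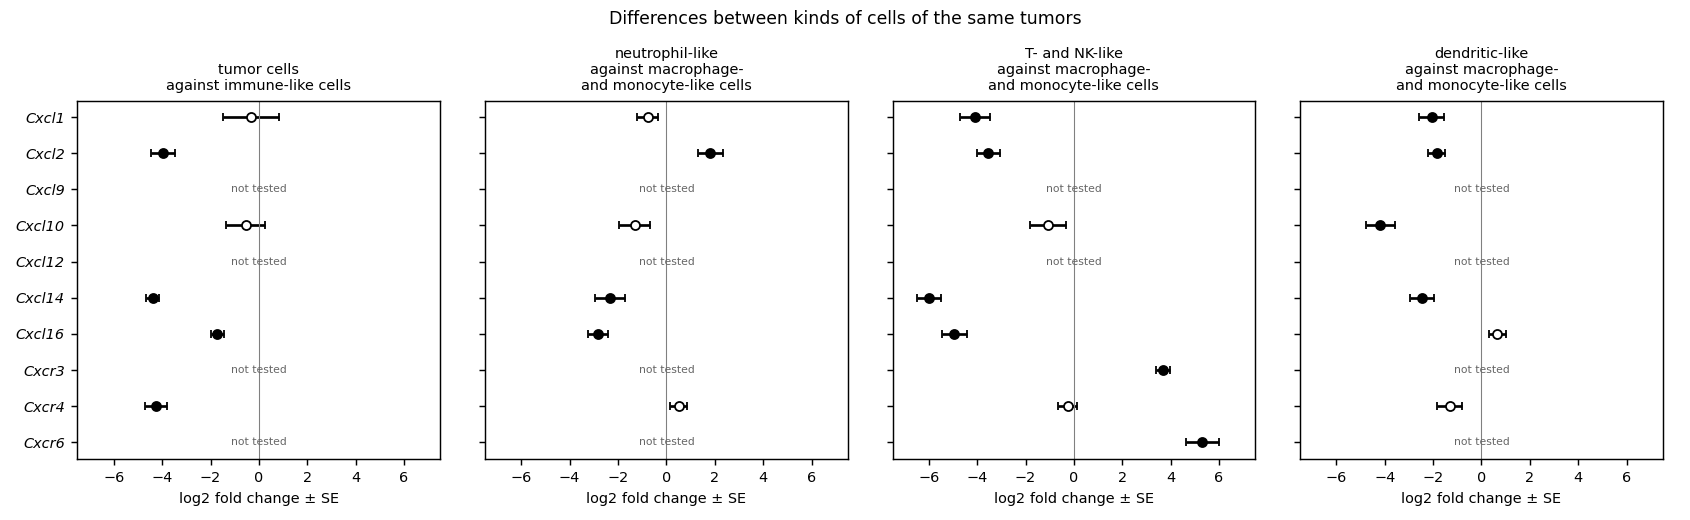
Log2 fold change with its SE (edgeR) of each CXC gene between kinds of cells of the same tumors, 1 panel per comparison, filled points for genes past the threshold and a line at 0. Cxcr3 and Cxcr6 lie to the right in T- and NK-like cells, at 3.68 and 5.31, and Cxcl14 lies to the left in all 4 panels.

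The subtypes were compared in tumor cells, in macrophage- and monocyte-like cells and in neutrophil-like cells. In tumor cells 0 of 4 CXC genes tested passed, as did 0 of 5816 genes (0%), with 193 at an unadjusted p under 0.05 and 18 calls by DESeq2. Cxcl2 was at 0, 22.7 and 127 CPM in the MYC spinal tumors and at 269, 845 and 143 CPM in the eRT (log2 fold change 3.21 ± 1.46, unadjusted p = 0.0601 by edgeR). These tumor cell levels lay below those of the T-like cells of the same tumor in 4 of 6 tumors (MYC spinal 1, 2 and 3 and eRT 2), and so are not read as expression there. Cxcl10 was at -2.15 ± 1.19, Cxcl16 at 1.77 ± 0.85 and Cxcl1 at 1.48 ± 1.04. The 14 tumor cells of MYC spinal 2 enter this comparison as 1 of 3.

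In macrophage- and monocyte-like cells 0 of 7 CXC genes passed, as did 0 of 9149 genes (0%), with 419 at an unadjusted p under 0.05 and 137 calls by DESeq2. Cxcl2 was at 50.9, 236 and 2129 CPM in the MYC spinal tumors and at 873, 22645 and 4061 CPM in the eRT (3.73 ± 1.63). Cxcl1 was at 3.55 ± 1.6, Cxcl14 at 2.71 ± 1.46, Cxcl10 at 1.07 ± 1.16, Cxcl16 at 0.70 ± 1.13, Cxcl9 at -0.31 ± 1.08 and Cxcr4 at -1.85 ± 1.54. With the mouse model as a covariate, the value of Cxcl1 turned to -1.32, and without MYC spinal 2 that of Cxcr4 turned to 1.57.

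In neutrophil-like cells 2 MYC spinal tumors were set against the single eRT 2, which the test assumes to vary like the others, with 1 residual degree of freedom, so no spread among eRT was measured. Of 3727 genes, 6.57% were higher in eRT 2. Log2 fold changes were 5.92 ± 0.96 for Cxcl2, 5.82 ± 0.94 for Cxcl1 and 3.63 ± 1.14 for Cxcl10, all higher in eRT 2. Those of Cxcl16 (-0.38 ± 1.25) and Cxcr4 (0.27 ± 0.83) lay within their SE. Cxcl1 was at 0.652 and 17.1 CPM in MYC spinal 2 and 3 and at 300.4 CPM in eRT 2. Cxcl10 was at 5.86 and 8.57 CPM in MYC spinal 2 and 3 and at 77.2 CPM in eRT 2. Cxcl1 and Cxcl10 passed the filter on low counts only through eRT 2, so they could only come out higher there. Calls of this fit are counted below but not used as support. The subtype, the model labelled Sox2-cre and this 1 animal cannot be told apart.

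A last test asked whether the difference between tumor and immune-like cells depends on the subtype. Of the 10 CXC genes 0 passed, as did 0 of 11234 genes (0%), with 395 at an unadjusted p under 0.05 and 1 call by DESeq2. Cxcl10 had the largest size among the CXC genes (-3.86 ± 0.78, unadjusted p = 0.000511, adjusted p = 0.844). Its levels in tumor and immune-like cells were 428 and 94.98 CPM in MYC spinal 1, 22.7 and 7.04 CPM in MYC spinal 2 and 344 and 119 CPM in MYC spinal 3. In the eRT they were 100.4 and 204 CPM in eRT 1, 58.0 and 214 CPM in eRT 2 and 2.30 and 42.7 CPM in eRT 3. Without the T-marked cells of MYC spinal 1 the value was -3.89.

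The rest of the family was read from a list of 13 further CXC genes, of which Cxcl5, Cxcl11, Cxcl15 and Cxcl17 were in no table. Only 2 of them, Ackr3 and Pf4, passed the filter on low counts and were tested between tumor and immune-like cells. Ackr3, the scavenging receptor of Cxcl12, was higher in tumor cells, at 36.8, 22.7 (1 UMI), 10.9, 70.5, 9.66 and 7.55 CPM in MYC spinal 1, 2 and 3 and eRT 1, 2 and 3, against 0 to 0.726 CPM in immune-like cells (5.48 ± 0.56). It passed the filter on low counts only through the tumor cells, so it could only come out higher there. Ackr1, an atypical chemokine receptor, was not tested and held 7.49 CPM in tumor and 0.181 CPM in immune-like cells of MYC spinal 3. Pf4, platelet factor 4, was lower in tumor cells (-5.23 ± 0.30) and held 1.42 to 2059 CPM in macrophage- and monocyte-like cells. Cxcr2, the receptor of Cxcl1 and Cxcl2, was higher in neutrophil-like cells (5.30 ± 0.39), at 85.4, 59.98 and 382 CPM in MYC spinal 2 and 3 and eRT 2. Macrophage- and monocyte-like cells of these tumors held 5.20, 1.78 and 13.1 CPM of Cxcr2. The gene passed the filter through the neutrophil-like cells, so the same limit holds. Cxcl3, a near relative of Cxcl2, was also higher in neutrophil-like cells (1.73 ± 0.47), at 3.26, 11.4 and 1575 CPM in the same order of tumors. Cxcl13, the ligand that draws B cells, held 689 and 323 CPM in macrophage- and monocyte-like cells of MYC spinal 1 and eRT 1 and 0 to 60.2 CPM in the other 4.

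Genes of chemokine processing and signalling and of the inducing pathways were also listed. These genes could enter the clustering, so their differences between kinds are descriptions. In tumor cells 12 of 14 tested signalling genes were lower than in immune-like cells and none was higher, against 16.9% lower and 13.8% higher of all genes. They include Rgs1 (-5.75), Dock2 (-4.59), Rac2 (-4.54) and Gnai2 (-1.37), genes that act behind chemokine receptors in leukocytes, and Adam17 (-1.33) and Adam10 (-0.68), the sheddases of Cxcl16. Of 9 inducing genes 7 were lower, among them Irf8 (-5.36), Tnfaip3 (-3.15) and Nfkbia (-1.41). The median over all genes was -0.01. In T- and NK-like cells 2 of 14 signalling genes were higher, Rgs16 (4.13) and Rac2 (1.78), and 4 of 14 were lower. The share higher is near the 12.9% of all genes, and the share lower is above the 15.4% of all genes. In neutrophil-like cells Rac2 (2.30) and Arrb2 (1.59) were higher and Rgs1 (-1.89) lower of 13 tested, and of the inducing genes Irf1 (1.2) was higher and Irf7 (-1.29) and Irf8 (-1.79) lower of 9, where 7.07% of all genes were higher and 4.57% lower. In neutrophil-like cells of the single eRT 2, Nfkbia (4.52), Tnfaip3 (3.33) and Irf1 (2.57) passed as higher than in the MYC spinal tumors, 3 of 9 tested, against 6.57% of all genes and with the same 1 residual degree of freedom.

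Likeness was measured by Pearson's r of log2(CPM + 10) over 49 sums of a tumor and a kind, which share libraries and depth and are given with no p. Cxcl2 was most like Il1b (0.88), Cd14 (0.87) and Slc7a11 (0.87), and Cxcl1 was most like Ier3 (0.73), Il1a (0.70) and Cdkn1a (0.68). Cxcl10 was nearest to Tlr3 (0.71), Ifit1 (0.70) and Rsad2 (0.69). Cxcl14 was nearest to C1qb (0.90), C1qc (0.89) and C1qa (0.88), and Cxcl16 to Tmem106a (0.88), Cttnbp2nl (0.87) and Aif1 (0.86). Cxcr6 was nearest to Cd3e (0.92), Cd3g (0.90) and Lat (0.89), Cxcr3 to Cd2 (0.92), Gimap4 (0.90) and Gimap7 (0.87), and Cxcr4 to Klf2 (0.89), Jund (0.82) and Gm9843 (0.81). Cxcl9 was nearest to Mmp12 (0.74), Creb5 (0.70) and Acvrl1 (0.68), but it had only 140 UMIs in all and its highest level came from 1 cell. Cxcl12, which rests on 1 tumor, was nearest to Klk6 (0.99), Islr (0.99) and Igf2 (0.98). Among the 10 genes themselves, Cxcl1 and Cxcl2 had 0.71 and Cxcr3 and Cxcr6 0.68.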

How the data were processed

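Per the labels and the study's methods, each of the 6 tumors (3 MYC spinal, 3 eRT) was dissociated with Accutase, dead cells were sorted out with 7-AAD, and libraries were made with the 10x Genomics 3′ kit. The submitters' processing notes name Cell Ranger 2.0.2 and mm10. The deposited tables, 1 a tumor, hold raw UMI counts that the authors kept for genes found in 3 or more cells. Groups came from the labels.

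Of 22681 cells, 22163 passed the limits of 200 genes (minimum) and 25% mitochondrial UMIs (maximum). Seurat 5.3.0 integrated the tumors of a subtype on 2000 variable genes, from which 23 CXC genes and Smarcb1 were left out, with 30 dimensions, 20 neighbors and resolution 0.8. To be named, a cluster needed 3 markers, each found in 10% of cells and raised by a log2 fold of 1. Tumor clusters had less than 0.25 of the expected Smarcb1. Scrublet called 20 doublets (0.0902%), which is too few for a working call, so all cells stayed in and the 843 top scores were dropped only as an alternative.

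UMIs were added up for each tumor and kind of 10 or more cells. The quasi-likelihood test of edgeR 4.0.16 (R 4.3.3) was run with TMM factors and filterByExpr, and p-values were adjusted by Benjamini-Hochberg over all genes tested, with 0.05 as the threshold. A standard error is the absolute log2 fold change over the square root of F. Where kinds of one animal were compared, the tumor was a block. The neutrophil-, T- and NK- and dendritic-like comparisons share the macrophage- and monocyte-like sums. Every comparison was tested on simulated data. Intervals are exact (Poisson for CPM, Clopper-Pearson for shares) at 95%, and a limit at 0 stands for 3 counts. DESeq2 1.42.0, Python 3.11.15, numpy 2.4.6, pandas 2.3.3, scipy 1.17.1 and matplotlib 3.10.9 were also used.

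The 10 genes and the lists were chosen with earlier results of these data known. Named are these genes, the CXC, signalling and inducing lists and, for each of the 10, the 3 most correlated genes of at least 100 UMIs. Of the inducing list, 1 gene counted in its totals is not reported here on its own. Clusters described within a kind were picked after their values had been seen. Alternatives were no TMM factors, DESeq2, no filter on low counts, a cell filter of 500 genes and 10%, resolutions of 0.4 and 1.6, Smarcb1 limits of 0.15 and 0.5, thinning to 500 UMIs or not at all in place of 1000, each tumor left out, no block and the mouse model as a covariate. Leaving out the T-marked cells of MYC spinal 1 was chosen after seeing the data.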

Additional observations from a re-analysis of the deposited data

Results flagged for a closer look

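For Cxcl10, the difference between tumor and immune-like cells ran in opposite directions in the subtypes. Its level was higher in tumor cells in 3 of 3 MYC spinal tumors and lower in 3 of 3 eRT. The interaction was -3.86 ± 0.78 on the log2 scale (edgeR quasi-likelihood test, unadjusted p = 0.000511, adjusted p = 0.844 over 11234 genes), so it failed the correction, and the value of MYC spinal 2 rests on 1 UMI in 14 tumor cells. In MYC spinal 3 its T-like cells held 301 CPM, an interval of 236 to 380 that overlaps that of the tumor cells.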

How the results depend on the processing

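Of 584 values of single CXC genes under the alternatives, 546 kept their direction and side of the threshold, 24 fell below it, 3 came past it and 11 turned in sign, none of these 11 passing the test. With 1 tumor left out, Cxcl1 in tumor against immune-like cells ran from -1.22 to 0.72 (0.33 without eRT 2, 0.72 without eRT 3) and was 0.16 in DESeq2. Cxcl10 there ran from -1.25 to 0.18 and was 0.25 with no replicate block. In eRT against MYC spinal macrophage- and monocyte-like cells, Cxcl9 ran from -0.98 to 0.30 (0.07 without MYC spinal 1, 0.09 without eRT 1) and Cxcr4 from -3.96 to 1.57, and Cxcl1 came to -1.32 once the mouse model entered as a covariate. Cxcr4 in neutrophil-like cells was -0.20 without TMM factors.

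Calls among the 10 CXC genes in tumor against immune-like cells went from 4 to 8 when every gene with 1 UMI was tested and to 2 with no replicate block. Without that block, 0 were called in neutrophil-like cells (3 with it), 0 in dendritic-like cells (4 with it) and 5 in T- and NK-like cells (6 with it). The pairing is by animal, since each tumor gave both kinds. Leaving out 1 tumor gave 1 to 2 calls in neutrophil-like cells (1 without MYC spinal 2), 2 to 4 in dendritic-like cells (2 without eRT 2) and 4 to 5 in tumor cells. Between subtypes in neutrophil-like cells 3 calls became 1 in DESeq2 and 1 with the stricter cell filter, and there leaving out a tumor or adding the mouse model could not be fitted. No paired analysis was possible between subtypes because the numbers only name the animals. The cause was not tested.

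Over all genes, 830 calls in neutrophil-like cells became 2490 without TMM factors, 1448 with every gene, 263 without MYC spinal 2 and 0 with no block. In dendritic-like cells 525 became 816 with every gene, 289 without eRT 2 and 44 with no block, in T- and NK-like cells 1980 became 1133 with no block, and in tumor cells 2904 became 4621 with every gene. Between subtypes, 323 in neutrophil-like cells became 185 in DESeq2 and 71 with the stricter filter. Without TMM factors the median of all genes moved by -0.71 (neutrophil-like) to 0.2 (dendritic-like and tumor cells). The kind with the highest share of positive cells was the same for 7 of 10 genes without thinning and for 8 of 10 at 500 UMIs. Depth limits MYC spinal 2 most, with 14 tumor cells and a median of 916 UMIs per cell.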
